A study of Mus musculus with 14 samples.

Results

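The thin filament of the sarcomere was followed through 10 genes: the tropomyosin genes Tpm1, Tpm2, Tpm3 and Tpm4, the tropomodulin genes Tmod1, Tmod3 and Tmod4, the leiomodin genes Lmod2 and Lmod3, and the nebulin gene Neb. They were taken by gene symbol from a table of 24016 RefSeq transcripts, 1 per gene, in which each of the 10 has 1 row. The RNA was from C2C12, an established line of mouse myoblasts whose cells fuse to myotubes after growth medium is replaced by differentiation medium with 2% horse serum. Cells were transfected either with a control siRNA (siCtrl) or with a pool of siRNAs against Klf5 (siKlf5), a zinc-finger transcription factor, and both arms shared the line, the medium and the transfection reagent. The comparison asks how these genes respond when Klf5 is knocked down during differentiation. Poly(A) RNA was sequenced from each arm at day 0 of differentiation medium and 1, 2 and 3 days later, a single library each time and 8 in all. No condition has a replicate, so values of a single day have no test. The spread of the siKlf5 to siCtrl difference over the 4 days allows 1 test, which pairs the libraries of each day.

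In a sarcomere, tropomyosin dimers lie end to end along each actin filament and, together with troponin, control the access of myosin to actin. Tropomodulins cap the pointed end of the filament, the end that points to the middle of the sarcomere, and so limit its growth. Leiomodins are related proteins that nucleate actin filaments and let them lengthen, while nebulin is a giant protein that runs along the filament from the Z-disc and stabilises it. Loss of nebulin or of leiomodin-3 causes nemaline myopathy, a disease with short or disordered thin filaments. Tropomyosins and tropomodulins also exist outside muscle, where they stabilise actin filaments of the cytoskeleton.

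Values are the deposited FPKM values, which are per exon length and were scaled to a matrix total of 10000000, so they exceed FPKM in its usual sense. Libraries held between 7850486 and 20301519 exon reads, recovered from the values. The siCtrl library of day 2 was the deepest, with 1.72 times the reads of the siKlf5 library of that day. Klf5 itself (NM_009769) was at 223.8, 381.1, 614.4 and 933.1 in siCtrl and at 35.1, 159.6, 192.1 and 211.4 in siKlf5 cells on days 0 to 3, lower in siKlf5 on each day. All 6 myoblast and myotube markers examined were expressed (Myod1, Myf5, Des, Myog, Myh3 and Ckm), with a summed value of 2754 to 8944 in siCtrl and 2288 to 8012 in siKlf5 cells. None of the 3 endothelium and blood markers and the 2 fat markers averaged 1 or more. Of the epithelium markers, Epcam was at 0 in each library and Cdh1 was at 4.63, 9.76, 24.9 and 38.1 in siCtrl and 1.65, 10.2, 3.98 and 14.9 in siKlf5 cells on days 0 to 3. Of the smooth muscle markers, Smtn (mean 381.8) and Lmod1 were expressed and Myh11 and Cnn1 were not. The part of such cells in the thin filament values was not tested. Fewer cells of a type and less RNA per cell cannot be told apart in such bulk samples. A ratio is given as log2((siKlf5 + 0.1)/(siCtrl + 0.1)), or in the same form for a pair of days, with a 95% exact (Clopper-Pearson) interval on reads divided by 6 that covers counting error only.

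Transcripts whose values averaged 1 or more were called expressed, 14312 of the 24016, and all 10 genes were among them. After 3 days of differentiation 6 of the 10 were more than 2-fold higher in siCtrl cells (Tpm2, Tmod1, Tmod4, Lmod2, Lmod3 and Neb), beside 15.5% of all expressed transcripts, and none was lower by that much, beside 12.7%. With an interval that also had to exclude 0 the count was 5, without Tmod4, beside 8.93%. In siKlf5 cells 6 were likewise more than 2-fold higher on day 3 (Tpm1, Tpm2, Tmod1, Lmod2, Lmod3 and Neb), beside 14.9%, all 6 with such an interval, beside 7.90%, and none was lower, beside 12.4%. The median log2 change of the 10 genes was 1.63 in siCtrl and 1.41 in siKlf5 cells, against -0.07 and -0.08 for all expressed transcripts. Most genes passed this limit within the first day. Between days 0 and 1, 6 genes in siCtrl (beside 9.38%) and 5 in siKlf5 cells (beside 11.9%) were more than 2-fold higher. Between days 1 and 2 these were Lmod2, Lmod3 and Neb in siCtrl cells (beside 14.1%), and Lmod2 alone in siKlf5 cells (beside 8.88%), where Tmod4 was lower (beside 6.11%). From day 2 to day 3 none passed in siCtrl cells (beside 4.97%), and Tmod4, listed at 0 on day 2, was the 1 that did in siKlf5 cells (beside 6.06%).

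**Figure D1:**
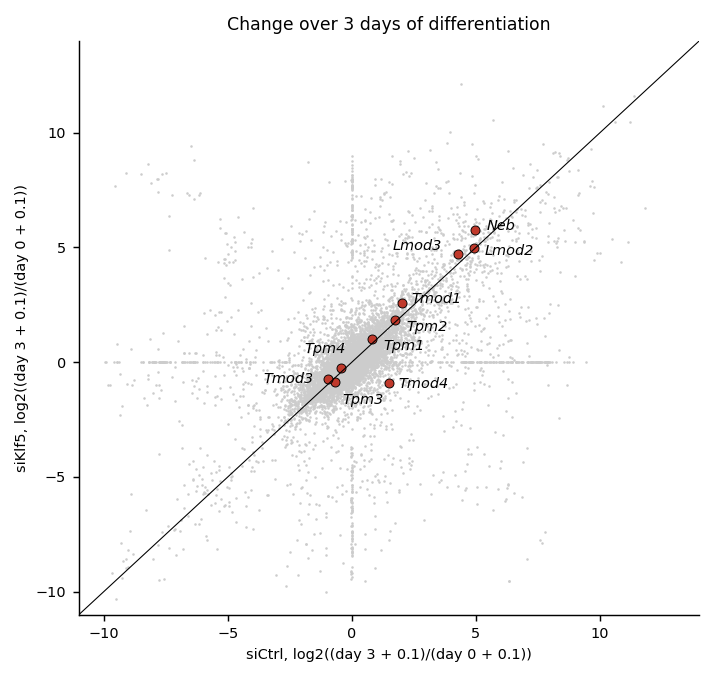
Change over 3 days in siCtrl (x axis) and siKlf5 cells (y axis), each as log2((day 3 + 0.1)/(day 0 + 0.1)); grey points are the 14312 expressed transcripts, red points the 10 thin filament genes, and the line marks equal change. Lmod2, Lmod3 and Neb lie far up the line, Tpm3, Tpm4 and Tmod3 lie below 0 on both axes, and Tmod4 stands away from the line.

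Between siKlf5 and siCtrl cells the genes differed far less. On day 0, 2 of the 10 were more than 1.5-fold lower in siKlf5 cells (Tmod1 and Lmod3), beside 11.1% of expressed transcripts, and both had an interval below 0, beside 1.89%. On day 1 and on day 2 the only such gene was Tmod4, beside 11.0% and 13.0%, and its intervals included 0. On day 3, 2 were lower (Tmod4 and Lmod3), beside 12.5%, of which Lmod3 had an interval below 0, beside 3.51%. Higher values by more than 1.5-fold were found for none on day 0 (beside 9.22%), day 1 (beside 16.4%) and day 2 (beside 7.69%), and for Neb on day 3 (beside 10.7%), with an interval above 0 (beside 2.72%). Median log2 ratios of the 10 genes were -0.12, -0.01, -0.05 and -0.03 on days 0 to 3, and those of all expressed transcripts 0.00, 0.03, -0.03 and 0.00. Past 1.5-fold alone, 0 to 2 of the 10 genes in each direction is close to these shares. Where an interval was also required, Tmod1 and Lmod3 on day 0 and Lmod3 and Neb on day 3 passed a limit that few transcripts pass. Intervals are narrower for genes with more reads, and the part of abundance in these counts was not tested. On day 0 Lmod3 rested on 189 reads in siCtrl and 84 in siKlf5 cells, and Tmod1 on 481 and 283.

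With the libraries of a day as a pair (limma on log2(value + 0.1) with day and siRNA as terms, 4 pairs and 3 residual degrees of freedom, Benjamini-Hochberg adjustment over 14312 transcripts), 0 of the 10 genes passed an adjusted p of 0.05, beside 0.0629% of expressed transcripts. At an unadjusted p under 0.05 the count was 2, Lmod2 and Lmod3, beside 9.60%. When any 1 day was left out of the fit, Lmod2 stayed under this limit. Lmod3 did so only without day 1, and Tmod1 passed without day 2. Lmod2 was lower in 4 of 4 days, with a mean log2 ratio of -0.34 ± 0.0983 (SE; 95% interval -0.57 to -0.12, limma adjusted p = 0.333). Lmod3 was lower in 3 of 4 days, with -0.42 ± 0.169 (SE; -0.81 to -0.03, limma adjusted p = 0.486). Tpm2, higher in 4 of 4 days, had a mean of 0.17 (-0.05 to 0.39), Tmod1 one of -0.24 (-0.52 to 0.05) and Neb one of 0.18 (-0.27 to 0.63). Klf5 itself was called, at -1.94 ± 0.201 (SE; limma adjusted p = 0.0244), as 1 of 9 calls over the table, and without any 1 of the days it was not, at adjusted p of 0.296 to 0.693, with 0 calls over the table. This fit takes the difference as equal on each day, and days are not replicates of a condition. Its variances were moderated over all tested transcripts, so its p-values and intervals rest on more than the 3 residual degrees of freedom.

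**Figure D2:**
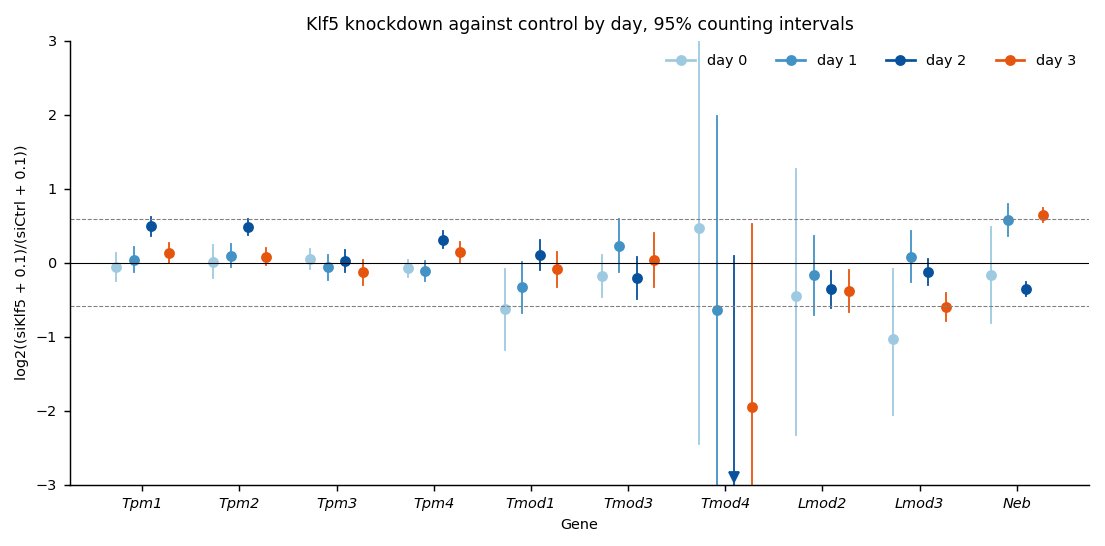
Log2((siKlf5 + 0.1)/(siCtrl + 0.1)) of each gene on days 0, 1, 2 and 3 (colours), with bars for the 95% counting interval and dashed lines at 1.5-fold; the axis ends at -3 and 3, and the triangle marks Tmod4 on day 2, listed at 0 in siKlf5 cells. Lmod2 lies below 0 on each day, Lmod3 is lowest on days 0 and 3, Neb changes side between days, and the tropomyosins stay within 1.5-fold.

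Tropomyosins were the most abundant of the 10 genes. Tpm1 (NM_001164248, chr9:66875697-66897020, minus strand, mm9) and Tpm2 (NM_001277875, chr4:43526598-43536426, minus strand) encode the main tropomyosins of striated muscle, and the annotated transcripts nearest to these rows encode 284 residues. Tpm1 stood at 1187, 2083, 1707 and 2099 in siCtrl and at 1140, 2145, 2399 and 2299 in siKlf5 cells on days 0 to 3. Tpm2 stood at 503.9, 1392, 1219 and 1691 in siCtrl and at 509.1, 1487, 1701 and 1790 in siKlf5 cells. Both had gained most of their level by day 1, and in siCtrl cells both were lower on day 2 than on days 1 and 3, which was not seen in siKlf5 cells. The siCtrl library of day 2 was the deepest, and the part of depth in these courses was not tested. Over the 3 days Tpm2 was higher by 1.75 on the log2 scale in siCtrl (95% interval 1.57 to 1.92) and by 1.81 in siKlf5 cells (1.63 to 2.00), and Tpm1 by 0.82 (0.66 to 0.99) and 1.01 (0.84 to 1.19). Each makes several spliced transcripts, and reads of its other transcripts that fall on the exons of the listed one are counted with it.

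Tpm3 (NM_001253738, chr3:89883443-89904824, plus strand) and Tpm4 (NM_001001491, chr8:74659191-74677028, plus strand) were lower, not higher, at the end of the course. Tpm3 makes a slow muscle tropomyosin from its first start site and short cytoskeletal ones from a start site inside the gene. Its row begins 6872 bases downstream of the gene's 5′ end, and the nearest annotated transcript encodes 248 residues, as does that of Tpm4, which makes a cytoskeletal tropomyosin. Tpm3 was at 1324, 1194, 817.3 and 822.1 in siCtrl and at 1371, 1144, 830.6 and 751.0 in siKlf5 cells. Tpm4 was at 1830, 2235, 1327 and 1331 in siCtrl and at 1733, 2068, 1645 and 1467 in siKlf5 cells. Tpm3 was thus lower on days 2 and 3 than on days 0 and 1 in both arms, while Tpm4 was highest on day 1. Libraries of day 1 were the shallowest of each arm, with 7850486 exon reads in siCtrl and 8119449 in siKlf5 cells. The part of depth in these courses was not tested. From day 0 to day 3 the log2 change of Tpm3 was -0.69 in siCtrl (95% interval -0.83 to -0.54) and -0.87 in siKlf5 cells (-1.03 to -0.71), and that of Tpm4 was -0.46 (-0.58 to -0.34) and -0.24 (-0.37 to -0.11). Centring on transcripts of like level left smaller changes, Tpm4 at -0.18 and -0.01 and Tpm3 at -0.45 and -0.66 in siCtrl and siKlf5 cells. Almost no change of Tpm4 was thus left in siKlf5 cells.

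**Figure D3:**
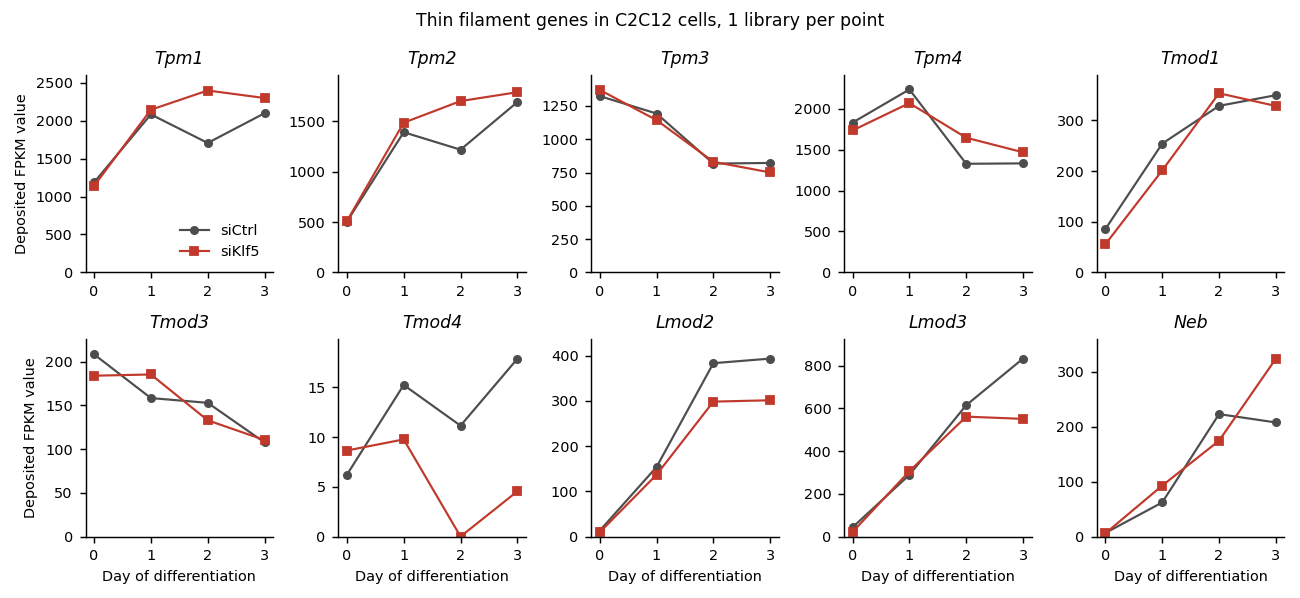
Deposited FPKM values (y axis, each panel from 0 on its own scale) against the day of differentiation for the 10 genes, with 1 library per point, siCtrl as grey circles and siKlf5 as red squares. The siCtrl and siKlf5 lines run close for the tropomyosins except on day 2, end apart for Lmod2 and Lmod3, and cross for Neb.

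The tropomyosins of siKlf5 cells lay within 1.5-fold of the control on each day. Tpm1, Tpm2 and Tpm4 differed most on day 2, when the log2 ratio was 0.49 for Tpm1 (95% interval 0.36 to 0.62), 0.48 for Tpm2 (0.37 to 0.59) and 0.31 for Tpm4 (0.20 to 0.42), but 0.02 for Tpm3 (-0.12 to 0.17). On day 3 the same ratios were 0.13, 0.08 and 0.14, and Tpm3 was at -0.13. On day 2 other abundant transcripts also lay above the control. The 314 transcripts with a mean value between 1000 and 3000, where all 4 tropomyosins lie, showed a median of 0.31 in the day 2 ratio, with 97.1% of them above 0. Their medians on days 0, 1 and 3 were 0.02, -0.07 and 0.05. At most 3 reads per position were kept when the table was made, and the siCtrl library of day 2 was the deepest. The part of this limit and of depth in the day 2 ratios was not tested. After centring on the 301 transcripts nearest in level, the day 2 ratios were 0.16 for Tpm1, 0.15 for Tpm2, -0.18 for Tpm3 and -0.02 for Tpm4, so that Tpm3 and Tpm4 lay below 0.

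Among tropomodulins, Tmod1 (NM_021883, chr4:46052094-46128904, plus strand), the form that caps thin filaments in striated muscle, was at 85.5, 254.2, 328.9 and 350.0 in siCtrl and at 55.4, 201.4, 353.7 and 328.7 in siKlf5 cells. It was lower in siKlf5 cells on days 0 and 1 and close to the control on days 2 and 3. In order of day its log2 ratio was -0.63 (95% interval -1.18 to -0.09), -0.34 (-0.69 to 0.01), 0.10 (-0.10 to 0.31) and -0.09 (-0.32 to 0.14). The change from day 0 to day 3 was 2.03 in siCtrl (1.68 to 2.40) and 2.57 in siKlf5 cells (2.12 to 3.05). The 3′ end of Tmod1 overlaps Tstd2 on the opposite strand over 1286 bases, and since both strands were counted, reads there cannot be assigned to either gene.

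Tmod3 (NM_016963, chr9:75345591-75407464, minus strand), which caps actin filaments in many cell types, was at 208.3, 158.2, 152.8 and 107.6 in siCtrl and at 183.8, 185.2, 132.8 and 110.3 in siKlf5 cells. It was lower at the end of the course in both arms, by a log2 change of -0.95 (95% interval -1.27 to -0.64) and -0.74 (-1.08 to -0.40), and all its intervals between siRNAs included 0. Tmod4 (NM_016712, chr3:94928436-94933130, plus strand), a skeletal muscle tropomodulin, was the scarcest of the 10 genes, at 6.20, 15.2, 11.1 and 17.9 in siCtrl and 8.65, 9.76, 0 and 4.54 in siKlf5 cells. These values rest on 15, 24, 46 and 45 reads in siCtrl and on 19, 16, 0 and 10 reads in siKlf5 cells. From day 1 on each siKlf5 value was below its siCtrl value. The intervals of all its ratios included 0, so a difference was not detectable at this depth. Tmod2, the tropomodulin of neurons, had a mean of 0.961 and was not expressed by the measure used here.

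Leiomodin genes had, with Neb, the largest changes of the set. Lmod2 (NM_053098, chr6:24547771-24555414, plus strand), known mainly from heart and also present in skeletal muscle, was at 13.0, 153.8, 383.7 and 393.8 in siCtrl and at 9.41, 136.8, 298.6 and 301.6 in siKlf5 cells. Lmod3 (NM_001081157, chr6:97188522-97202774, minus strand), the leiomodin of skeletal and heart muscle, was at 42.9, 288.7, 614.9 and 833.0 in siCtrl and at 21.0, 305.7, 561.3 and 550.8 in siKlf5 cells. Both were higher on each day than on the day before through day 2 in each arm. From day 2 to day 3 Lmod3 was higher in siCtrl cells by 0.44 on the log2 scale (95% interval 0.28 to 0.59), against -0.03 in siKlf5 cells (-0.24 to 0.18), and Lmod2 kept its level in both arms. From day 0 to day 3 the log2 change of Lmod2 was 4.92 in siCtrl (3.95 to 6.12) and 4.99 in siKlf5 cells (3.81 to 6.55), and that of Lmod3 was 4.27 (3.76 to 4.84) and 4.71 (3.95 to 5.60). A day 0 value of Lmod2 rests on 50 reads in siCtrl and 33 in siKlf5 cells, hence the wide intervals.

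In siKlf5 cells Lmod2 was below the control on each of the 4 days, with log2 ratios of -0.46 (95% interval -2.33 to 1.27), -0.17 (-0.70 to 0.36), -0.36 (-0.62 to -0.11) and -0.38 (-0.67 to -0.10) in order of day. It never passed 1.5-fold. Lmod3 was lower on day 0, at -1.03 (-2.05 to -0.08), and on day 3, at -0.60 (-0.79 to -0.41), while on days 1 and 2 it was at 0.08 (-0.26 to 0.43) and -0.13 (-0.31 to 0.04). On day 3 this is 1.51-fold, just past the limit of 1.5-fold, and upper-quartile scaling put Lmod3 at -0.56, inside it, as did centring on transcripts of like length, at -0.58. Myog, which encodes the myogenic factor myogenin, was at 479.3, 1896, 2061 and 2293 in siCtrl and at 327.6, 1517, 1740 and 1386 in siKlf5 cells, lower in siKlf5 on each day. Its part in the leiomodin values was not tested. Lmod1, the smooth muscle leiomodin, was at 31.8 in siCtrl and 33.2 in siKlf5 cells on day 3, a log2 ratio of 0.06 (-0.60 to 0.72).

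Upstream sequences are shown for the 3 genes with the largest change over the course and, for contrast, for Tpm4. By the deposited values Tpm4 was lower on day 3 than on day 0 in both arms. After centring on transcripts of like level almost no change of Tpm4 was left in siKlf5 cells. Each is the 250 bases before the start site of the table's transcript, read from the mm9 genome, 5′ to 3′ on the strand of the gene. Capitals mark the E-box CANNTG, the motif that MyoD and myogenin recognise. The windows are chr6:97202775-97203024 (minus strand) for Lmod3, chr6:24547521-24547770 (plus strand) for Lmod2, chr2:52194319-52194568 (minus strand) for Neb and chr8:74658941-74659190 (plus strand) for Tpm4.
Lmod3: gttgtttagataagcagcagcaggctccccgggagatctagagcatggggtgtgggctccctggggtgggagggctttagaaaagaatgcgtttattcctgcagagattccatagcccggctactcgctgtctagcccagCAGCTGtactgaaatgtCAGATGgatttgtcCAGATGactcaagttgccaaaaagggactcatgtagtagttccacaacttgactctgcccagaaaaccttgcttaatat
Lmod2: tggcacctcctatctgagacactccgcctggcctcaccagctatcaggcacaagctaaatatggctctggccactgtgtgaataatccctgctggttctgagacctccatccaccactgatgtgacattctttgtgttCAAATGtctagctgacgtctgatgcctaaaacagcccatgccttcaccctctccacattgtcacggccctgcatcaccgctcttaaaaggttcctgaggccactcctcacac
Neb: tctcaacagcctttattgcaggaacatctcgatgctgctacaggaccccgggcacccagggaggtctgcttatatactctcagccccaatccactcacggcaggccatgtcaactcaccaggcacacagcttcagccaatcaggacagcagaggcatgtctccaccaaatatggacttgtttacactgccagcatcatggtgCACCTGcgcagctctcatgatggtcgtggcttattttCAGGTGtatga
Tpm4: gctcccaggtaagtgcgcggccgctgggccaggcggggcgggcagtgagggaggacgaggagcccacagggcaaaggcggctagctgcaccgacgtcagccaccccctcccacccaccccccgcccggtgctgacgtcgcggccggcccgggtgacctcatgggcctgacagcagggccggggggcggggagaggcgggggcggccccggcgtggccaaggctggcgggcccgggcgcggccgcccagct

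Lmod3 holds 3 E-boxes in this window, at -110, -93 and -79 from the start site, Neb holds 2, at -48 and -11, both matching CACCTG, and Lmod2 holds 1, at -112. Tpm4 holds none, and 79.2% of its window is G or C, against a median of 55.2% over all windows. Of the genes not shown, Tpm3, also lower on day 3, holds 1, at -188. Tmod1, higher on day 3, holds none, and neither does Tmod3, lower on day 3. Of the 10 genes, 7 hold an E-box, as do 62.9% of the 23953 windows of this length, so the share of the set is near that of all genes. Among windows of expressed transcripts 57.3% hold an E-box. The form CAGCTG was found in 2 (Tpm2 and Lmod3), beside 12.4% of all windows, and CACCTG in 2 (Neb and Tmod4), beside 16.9%. The GC-rich core CCGCCC and the box CCACCC, of the kind that Sp1 and Klf factors bind, were in 5 and 4 of the 10. They were in 41.6% and 29.4% of all windows, and in 56.5% and 32.5% of those of expressed transcripts. Lmod2, Neb, Tmod3 and Tmod4 hold neither motif, and Lmod3 holds CCACCC once, at -187. CATTCC, the core of the MCAT element, was in Tpm1 and Tmod1 (beside 11.6% of all windows). A CArG box was in Neb alone, at -86 (beside 1.31%), and a MEF2 site was in none (beside 2.60%). All motifs were searched on both strands, CAGCTG and CACCTG are also counted as CANNTG, and a match describes the letters of the window, not binding.

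Nebulin differed in direction between days. Neb (NM_010889, chr2:51992167-52194318, minus strand) has 22330 bases of exon, and the nearest annotated transcript has 157 exons and encodes 7152 residues. Its values were 6.51, 62.0, 222.6 and 207.4 in siCtrl and 5.81, 92.6, 174.2 and 323.4 in siKlf5 cells. From day 2 to day 3 its log2 change was -0.10 in siCtrl cells, with an interval below 0, and 0.89 in siKlf5 cells. The log2 change from day 0 to day 3 was 4.97 in siCtrl (95% interval 4.58 to 5.44) and 5.77 in siKlf5 cells (5.34 to 6.30), the largest of the 10 genes in both arms.

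In order of day the log2 ratio of Neb was -0.16 (95% interval -0.81 to 0.48), 0.58 (0.37 to 0.80), -0.35 (-0.45 to -0.26) and 0.64 (0.55 to 0.74), and the last of these is 1.56-fold. On days 2 and 3 other long transcripts lay on the same side as Neb. The 65 transcripts with 12000 to 20000 bases of exon and a mean of at least 10 had median log2 ratios of 0.20, 0.01, -0.41 and 0.34 on days 0 to 3. Of them 3.08% were above 0 on day 2 and 89.2% on day 3. Among still longer transcripts, Ttn, which encodes titin, the giant elastic protein of the sarcomere, had log2 ratios of 0.16, 0.62, -0.32 and 0.92 in order of day. Those of Syne2, a nuclear envelope gene not particular to muscle, were 0.55, -0.07, -0.33 and 0.93. After centring on the 301 transcripts nearest in length, nearly all of them shorter than Neb, the Neb ratios of days 1, 2 and 3 were 0.62, 0.05 and 0.45, so that day 1 and not day 3 lay past 1.5-fold. With so few transcripts as long as Neb, the part of length in its values was not tested further. A noncoding transcript, 4930573O16Rik, lies within Neb on the opposite strand, with a mean value of 18.5, and its reads on shared exons could be counted for Neb.

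**Figure D4:**
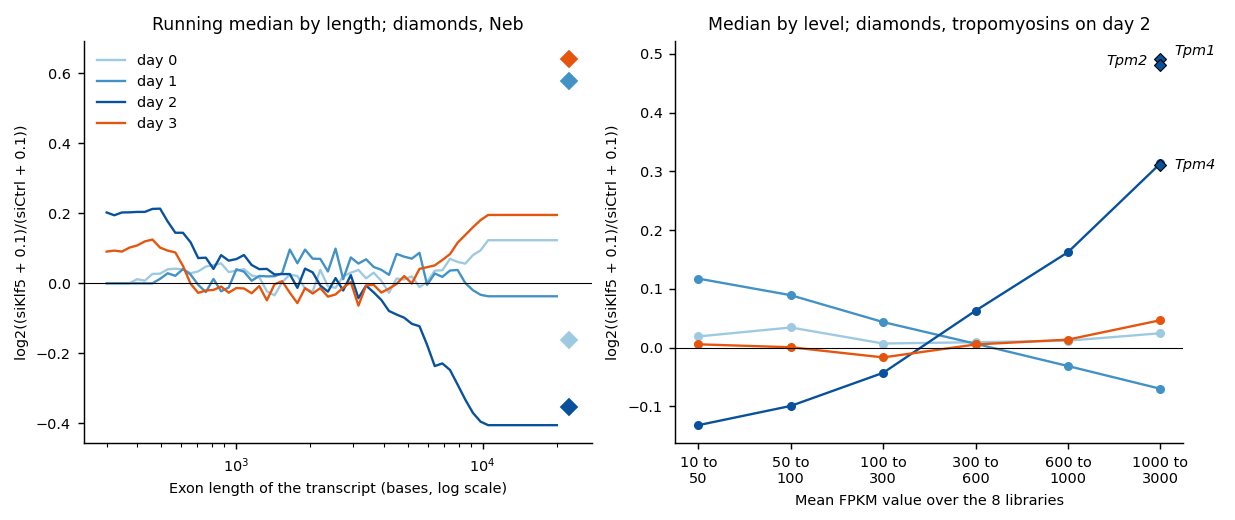
Left, running median of log2((siKlf5 + 0.1)/(siCtrl + 0.1)) over 301 transcripts against exon length (log axis) for each day, with diamonds for Neb; right, the median of the same ratio in bins of mean FPKM value, with diamonds for Tpm1, Tpm2 and Tpm4 on day 2. Long transcripts lie below 0 on day 2 and above 0 on day 3, and abundant transcripts lie above 0 on day 2.

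Tpm1 and Tpm2 made up more of the summed tropomyosin value with each day of differentiation. Lmod2 and Lmod3 did so in the summed tropomodulin and leiomodin value. Muscle and cytoskeletal forms of the same gene were not separated. Tpm1 and Tpm2 together made up 34.9% of the summed tropomyosin value on day 0 in siCtrl cells, then 50.3%, 57.7% and 63.8% on days 1 to 3 (95% interval on day 3, 62.2% to 65.3%). In siKlf5 cells the shares were 34.7%, 53.1%, 62.4% and 64.8% (63.2% to 66.4% on day 3), so that the intervals of the arms overlapped on days 0, 1 and 3 but not on day 2. These intervals cover counting error only. On day 2 abundant transcripts as a class lay above the control, and the part of this in the shares was not tested. The summed tropomyosin value itself was 4845, 6903, 5069 and 5944 in siCtrl and 4754, 6843, 6576 and 6307 in siKlf5 cells. The part of library depth in these sums was not tested.

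Of the summed tropomodulin and leiomodin value, Tmod3 held 58.5% on day 0 and 6.32% on day 3 in siCtrl cells, and 66.1% and 8.51% in siKlf5 cells. Lmod2 and Lmod3 together held 15.7% on day 0 and 72.1% on day 3 in siCtrl cells (95% interval 69.8% to 74.3%), and 10.9% and 65.8% in siKlf5 cells (62.8% to 68.7%). On days 1 and 2 they held 50.8% and 67.0% in siCtrl and 52.7% and 63.9% in siKlf5 cells. The intervals of the arms overlapped on days 0, 1 and 2 and did not meet on day 3. The lower leiomodin share of day 3 went with 48.9% for Lmod3 in siCtrl (46.3% to 51.6%) and 42.5% in siKlf5 cells (39.3% to 45.8%), whereas Lmod2 held 23.1% and 23.3%. The summed value was 355.9, 870.2, 1492 and 1702 in siCtrl and 278.2, 838.9, 1347 and 1296 in siKlf5 cells. For each unit of it there were 13.6, 7.93, 3.40 and 3.49 units of tropomyosin in siCtrl and 17.1, 8.16, 4.88 and 4.87 in siKlf5 cells on days 0 to 3. The part of the day 2 shift of abundant transcripts in these units was not tested.

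**Figure D5:**
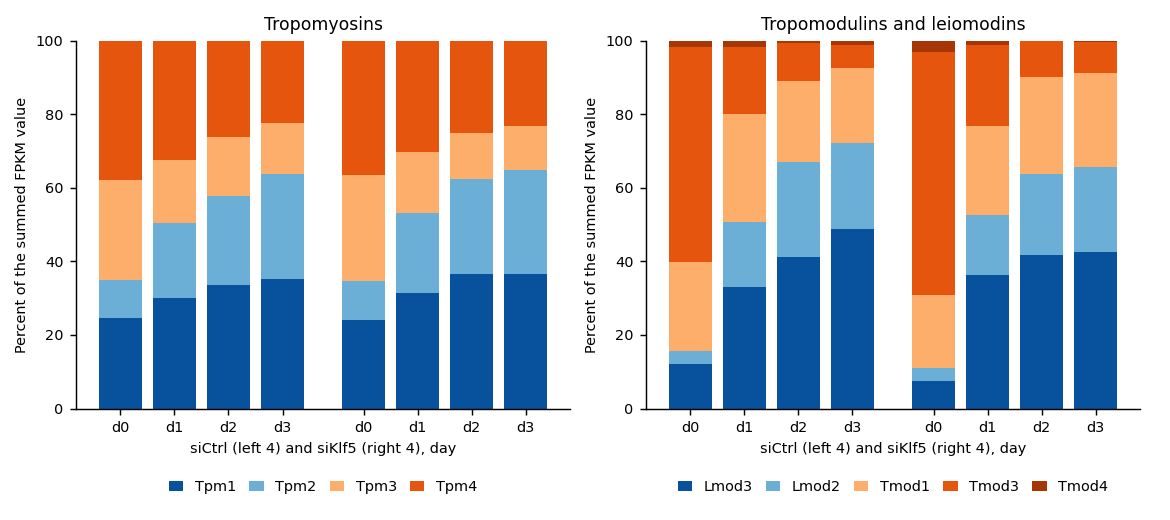
Share of each gene, in percent, of the summed FPKM value of the tropomyosins (left) and of the tropomodulins and leiomodins (right), with siCtrl days 0 to 3 in the left 4 bars and siKlf5 days 0 to 3 in the right 4 bars of each panel. Tpm1 and Tpm2 together are at 34.9% on day 0 and 63.8% on day 3 in siCtrl and at 34.7% and 64.8% in siKlf5 cells, and Lmod3 ends at 48.9% in siCtrl and 42.5% in siKlf5 cells.

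Ranked by value per length, the order of the 10 genes in siCtrl cells on day 0 was Tpm4, Tpm3, Tpm1, Tpm2, Tmod3, Tmod1, Lmod3, Lmod2, Neb and Tmod4. Tpm3 did not differ from Tpm1 beyond the counting interval, nor Lmod2 from Neb or Neb from Tmod4. On day 3 the order was Tpm1, Tpm2, Tpm4, Lmod3, Tpm3, Lmod2, Tmod1, Neb, Tmod3 and Tmod4, where Lmod3 and Tpm3, and likewise Lmod2 and Tmod1, did not differ beyond it. In siKlf5 cells on day 3 Tpm3 stood above Lmod3, at a ratio of 1.36 (95% interval 1.19 to 1.56), and Tmod1, Neb and Lmod2 followed with no neighbours that differed beyond the interval.

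The transcript whose profile over the 8 libraries was nearest to each gene was found by the root mean square difference of log2(value + 0.1), each profile centred on its own mean, among the 11590 others (11591 for Tmod4) that averaged 10 or more. Nearest to Tmod1 was Stac3, which encodes a protein of excitation-contraction coupling, at a difference of 0.11. Lmod2 was nearest to Alpk3, a muscle kinase gene, at 0.23, Lmod3 to Klhl41, a kelch protein gene of the sarcomere, at 0.20, and Neb to Myom1, which encodes the M-band protein myomesin, at 0.22. Tpm1 was nearest to Itm2b at 0.047, Tpm2 to Map1lc3a at 0.16, Tpm3 to Rwdd1 at 0.073, Tpm4 to Manf at 0.067 and Tmod3 to Klhl11 at 0.061. For Tmod4 the nearest transcript, Sncg, was 1.31 away. Within the set, Lmod2 and Lmod3 were nearest to each other, at 0.29, as were Tpm1 and Tpm2, at 0.33, and Tpm3 and Tmod3, at 0.17.

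Many other genes of the thin filament were also higher at the end of differentiation. Of a list of 36 actins, troponins, relatives of the 10 genes, Z-disc and barbed end proteins, kelch proteins and actin turnover factors, 34 were expressed (Kbtbd13 and Tmod2 were not), of which 20 were more than 2-fold higher on day 3 than on day 0 in siCtrl cells, beside 15.5% of expressed transcripts, and 2 were lower, beside 12.7%. Their median log2 change was 1.81. All 8 troponin genes were among the 20, as was Actn2, the alpha-actinin of the muscle Z-disc, which was at 6.70 on day 0 and 681.4 on day 3. Between siKlf5 and siCtrl cells on day 3, 3 of the 34 were more than 1.5-fold lower (Klhl40, and Tnni3 and Nebl, which averaged under 10), beside 12.5% of expressed transcripts, and 1 was higher (Pfn2), beside 10.7%, with a median log2 ratio of 0.02. Among those with a mean of at least 10 the lowest ratios were those of Klhl40, whose product stabilises leiomodin-3 and nebulin, at -0.69 (95% interval -1.07 to -0.32), the heart-type actin gene Actc1 at -0.48 (-0.61 to -0.36) and the formin gene Fhod3 at -0.28 (-0.69 to 0.12). The highest were the profilin gene Pfn2 at 0.98 (-0.33 to 2.39), Lasp1, a relative of nebulin, at 0.17 and Pfn1 at 0.15. Klhl40 stood at 205.5 in siCtrl and 127.3 in siKlf5 cells on day 3. On day 2, 16 of the 34 had an interval above 0, beside 7.20% of expressed transcripts, and they include abundant actin and troponin genes.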

How the data were processed

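RNA-seq libraries of C2C12 cells (8, 1 per siRNA and day) were analysed; 6 ChIP-seq samples were not analysed here. Per the labels and the study's methods, paired-end reads of poly(A) RNA were aligned to mm9 with STAR and counted with HOMER. The authors deposited FPKM values of 24016 RefSeq transcripts, counted on exons over both strands, with at most 3 reads per position, 1 transcript per gene and a matrix total set to 10000000. They also deposited log2 columns, of which 7 were used in 1 alternative and 1 without a day in its name was not used.

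Reads behind each value were recovered from the value, the exon length and the library's step, and 100% of the values checked lay within 0.1 of a whole number. Since reads came in groups, intervals were computed on reads divided by 6. They cover counting error only. Ratios used a pseudocount of 0.1, which understates changes of low genes. Transcripts averaging 1 or more were called expressed, and those past 1.5-fold (siRNA) or 2-fold (days) were counted over the whole table without a test, since each condition has 1 library. A fit with the libraries of each day as a pair (limma 3.58.1, R 4.3.3) was added after seeing the data. Members, gene lists and limits were chosen with earlier results of these data known. The genes named are every member, Klf5, Tmod2, Lmod1, the 3 lowest and 3 highest partners on day 3 that averaged 10 or more, the nearest profile of each member and overlapping rows; Actn2, Ttn, Syne2, Tnni3, Nebl and Kbtbd13 were added after their values were seen (as was Myog, from the marker list). Values of 1 long transcript are not reported here. Marker lists were examined for myoblasts and myotubes (6 of 6 expressed), smooth muscle (2 of 4), endothelium and blood (0 of 3), fat (0 of 2) and epithelium (1 of 2). Upstream windows and annotation are from the mm9 genome with GENCODE gene models; rows and models differ by some bases in length. The calculations were tested on simulated data and run in Python 3.11.15 (matplotlib 3.10.9, numpy 2.4.6, scipy 1.17.1, pandas 2.3.3). Other pseudocounts, filters, scalings and limits were tried as alternatives.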

Additional observations from a re-analysis of the deposited data

Results flagged for a closer look

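Opposite directions were found for Neb between days. In siKlf5 against siCtrl cells its log2 ratio was 0.58, -0.35 and 0.64 on days 1, 2 and 3, each with an interval that excluded 0. The difference between these days was not tested, since each day has 1 library per siRNA. From day 2 to day 3 the log2 change of Neb was -0.10 in siCtrl and 0.89 in siKlf5 cells, again in opposite directions and not tested. Tpm1 and Tpm2 differed in the same way from day 1 to day 2. The log2 change of Tpm1 was -0.29 in siCtrl and 0.16 in siKlf5 cells, and that of Tpm2 was -0.19 and 0.19, and this difference was not tested. The siCtrl library of day 2 enters the siCtrl changes and the day 2 ratio of this paragraph.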

How the results depend on the processing

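No paired analysis was possible because each siRNA and day has 1 library, for values of a single day. The fit with libraries paired by day, added after seeing the data, called 0 of the 10 genes with a pseudocount of 1, with a mean of at least 10 and without each day in turn. Counts of the 10 genes and of the partner list rest on few genes and move with the limits. A 2-fold limit left 1 gene lower on day 0, 0 lower on day 1, and 1 lower and 0 higher on day 3. A mean of at least 10 or a required interval left 0 lower on days 1 and 2 and 1 on day 3, since Tmod4 was dropped. Upper-quartile scaling left 1 lower on day 3. Centring by exon length, added after seeing the data, left 1 lower and 0 higher on day 3 and gave 1 higher on day 1; the 1 of day 1 and the 0 of day 3 are Neb. Centring by level, also added, gave 1 gene lower by more than 2-fold from day 0 to day 3 in siKlf5 cells.

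For partners on day 3, a mean of at least 10 or a required interval left 1 lower, and a 2-fold limit or an interval left 0 higher. From day 0 to day 3 in siCtrl cells 1 partner was lower with upper-quartile or median-ratio scaling or with centring by level or length, and 0 with a 4-fold limit, and the median was 2.25 with a mean of at least 10. Shares of reads, not per length, were 26.8% on day 0 and 56.9% on day 3 for Tpm1 and Tpm2 in siCtrl, 26.7% and 58.0% in siKlf5 cells, and for Lmod2 and Lmod3 10.9% and 65.2% in siCtrl and 57.6% on day 3 in siKlf5 cells. Of the 40 ratios between siRNAs, centring by level moved 4 outside their interval (the tropomyosins on day 2, where Tpm3 became -0.18 and Tpm4 -0.02) and centring by length 2 (Neb on days 2 and 3), and the other alternatives moved 0. The sign changed for 3 of the 40 by level, 2 by length and 1 by median-ratio scaling, none of them past 1.5-fold. Of the 20 changes from day 0 to day 3, centring by level moved 8 outside their interval (Tpm1 to Tpm4 in both arms) and centring by length 3 (Tpm1, Tpm3 and Tpm4 in siKlf5 cells), none to the other direction. Depth limits Tmod4, and Lmod2 and Neb on day 0.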
